A study of Mus musculus with 8 samples.

Results

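Imprinted long non-coding RNAs are transcripts made from only the maternal or only the paternal copy of a gene cluster. The 8 genes described here were H19, Meg3, Rian, Mirg, Kcnq1ot1, Airn, Peg13 and Snhg14. They were measured in liver of fasted mice and of mice fed ad libitum. Each gene took every entry (row) of the NONCODE long non-coding RNA catalogue that overlapped its GENCODE release 21 span on the same strand of mm10. The 8 genes are part of 21068 GENCODE genes with at least 1 such row. They hold 178 of the 83057 rows: 8 for H19, 17 for Meg3, 27 for Rian, 14 for Mirg, 4 for Kcnq1ot1, 25 for Airn, 1 for Peg13 and 82 for Snhg14.

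The study examined livers after a 24 h fast. The fasted group was 4 male C57BL/6 mice of about 20 weeks that had no food for 24 h, and the 4 mice of the ad libitum group were male C57BL/6 mice of the same age with free access to food. The labels name no modified allele and no agent in either group. Each library came from total RNA of a mouse liver, so the RNA of hepatocytes and of all other liver cells was measured together, and fewer cells of a type cannot be told apart from less RNA per cell.

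Values are reads as deposited and CPM, which are reads scaled to a TMM-adjusted library total without the mitochondrial 16S rRNA. Levels of different genes are compared only per length, as deposited RPKM (reads scaled to the length of the row and to the library) of a single row. A gene or row passed at an adjusted p under 0.05 in the quasi-likelihood F test of edgeR, with p-values adjusted over all features by the Benjamini-Hochberg method. Every adjusted p below is from that test unless another is named, and log2 changes are fasted over ad libitum with a standard error (SE).

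Library totals without the 16S rRNA were 90243439 to 119486211 reads in the fasted group and 51107745 to 68691606 reads in the ad libitum group. Fasted replicates 1 to 3 stood apart from the other 5 libraries on the first principal component of all genes, which held 57.3% of the variance. Their scores were -61.7 to -58.1, against 9.32 in fasted replicate 4 and 39.9 to 47.0 in the ad libitum libraries. Odd read counts also made up a larger share of the values of 21 to 200 reads in these 3 libraries, at 16.5 to 17.8%, against 10.8% in fasted replicate 4 and 9.21 to 10.3% in the ad libitum libraries. The change in fasted replicate 4 alone is therefore given beside the main results. Of the 8 listed hepatocyte markers, 3 had a row: Ttr, Cps1 and Serpina1c. Their summed level was 5100 to 6344 CPM in fasted replicates 1 to 3 and 3301 CPM in fasted replicate 4. In ad libitum livers it was 3242 to 3828 CPM. Of these 3 markers, Cps1 passed as higher and Ttr as lower in fasted livers. Of the stellate cell and fibroblast markers, 5 of 6 had a row and summed to 125 to 141 CPM in fasted replicates 1 to 3, 47.0 CPM in fasted replicate 4 and 35.7 to 56.2 CPM in ad libitum livers. These markers went both ways: Reln passed as higher, and Lrat and Col1a1 as lower, in fasted livers. Reads from opposite strands could not be told apart. In 31 pairs of single-exon rows that cover the same bases on opposite strands with at least 400 reads, 87.1% had counts within 1.2-fold of each other.

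In an imprinted cluster, DNA methylation laid down in the egg or sperm leaves a control region active on the copy from a single parent. The non-coding RNA is often transcribed from that region or under its control. Airn and Kcnq1ot1 are made from the paternal copy and silence neighbouring protein-coding genes on that same chromosome, best known from placenta and embryo. H19 is made from the maternal copy, shares its enhancers with the growth factor gene Igf2 and is abundant in fetal liver before it is shut down after birth. Meg3, Rian and Mirg lie head to tail in the Dlk1-Dio3 cluster and are made from the maternal copy. They are hosts of small RNAs. Snhg14 is a very long paternal transcript of the Prader-Willi and Angelman region, a host of box C/D snoRNAs that in neurons runs across Ube3a. Peg13 is a paternal, single-exon transcript known mainly from brain.

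Sequences around the start sites are from RefSeq on GRCm38.p6, where 6 of the 8 genes matched an entry by name, while H19 and Peg13 did not. The Snhg14 window, at chr7:60450128-60450427 on the minus strand, lies outside the GENCODE span used here. Its start is 474418 bases upstream of the GENCODE start, from which distances along Snhg14 are given below. Kcnq1ot1 and Airn are shown because both are antisense RNAs that were readily measured, and Meg3 as the first gene of the chromosome 12 cluster, whose genes varied together between mice. Each window runs from 250 bases before to 50 bases after the annotated start, and capitals mark every CG, the pair of letters that carries DNA methylation and reads the same on both strands. RefSeq gives 2 starts for Meg3; the first window is shown, at chr12:109540746-109541045 on the plus strand, with the Kcnq1ot1 window at chr7:143296498-143296797 on the minus strand and the Airn window at chr17:12741061-12741360 on the plus strand. The Rian window at chr12:109603695-109603994 on the plus strand is shown because Rian varied together with its neighbour Meg3.
Meg3: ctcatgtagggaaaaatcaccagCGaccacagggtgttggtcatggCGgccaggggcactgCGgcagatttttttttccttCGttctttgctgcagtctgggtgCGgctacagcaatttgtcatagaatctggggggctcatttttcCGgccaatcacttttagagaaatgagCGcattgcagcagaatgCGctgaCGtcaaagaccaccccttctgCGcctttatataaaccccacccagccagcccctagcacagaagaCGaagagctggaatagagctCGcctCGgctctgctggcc
Rian: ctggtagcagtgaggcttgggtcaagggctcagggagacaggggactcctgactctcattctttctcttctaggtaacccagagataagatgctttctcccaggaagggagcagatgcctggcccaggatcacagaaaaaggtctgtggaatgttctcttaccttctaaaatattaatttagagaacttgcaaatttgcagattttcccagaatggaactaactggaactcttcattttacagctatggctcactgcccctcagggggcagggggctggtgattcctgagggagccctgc
Kcnq1ot1: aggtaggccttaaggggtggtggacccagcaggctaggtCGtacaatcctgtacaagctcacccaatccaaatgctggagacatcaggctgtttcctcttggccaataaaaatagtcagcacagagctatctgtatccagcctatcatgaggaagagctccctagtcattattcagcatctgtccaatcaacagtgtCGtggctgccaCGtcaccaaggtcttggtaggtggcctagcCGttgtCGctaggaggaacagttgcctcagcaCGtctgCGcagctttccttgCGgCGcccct
Airn: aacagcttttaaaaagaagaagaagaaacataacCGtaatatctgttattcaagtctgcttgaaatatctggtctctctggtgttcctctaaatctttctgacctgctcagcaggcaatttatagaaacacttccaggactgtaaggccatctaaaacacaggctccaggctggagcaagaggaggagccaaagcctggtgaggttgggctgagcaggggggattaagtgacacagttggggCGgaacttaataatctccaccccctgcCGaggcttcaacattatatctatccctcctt
The first Meg3 window held 13 CG, the Rian window 0, the Kcnq1ot1 window 9 and the Airn window 3. The median of 32851 RefSeq promoter windows of 300 bases was 7. At least as many CG as in the first Meg3 window were found in 37.9% of these windows, at least as many as in the Kcnq1ot1 window in 45.8% and at least as many as in the Airn window in 76.7%. The second Meg3 window, at chr12:109545148-109545447 on the plus strand, held 1 CG, and 94.6% of the windows held at least as many. Methylation was not measured, and the counts describe only the letters of these windows.

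H19, Meg3, Rian and Mirg also hold microRNA genes, which are cut from the host transcript or from its introns. RefSeq placed 37 mature microRNAs inside the 8 spans, 2 in H19, 3 in Meg3, 6 in Rian and 26 in Mirg. Mature microRNAs were not measured in these libraries. Examples from each host are shown because they are the products these hosts are known for, with the seed (bases 2 to 8) in capitals.
miR-675-5p of H19: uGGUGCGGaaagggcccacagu
miR-770-5p of Meg3: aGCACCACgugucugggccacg
miR-370-3p of Rian: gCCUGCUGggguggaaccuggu
miR-410-3p of Mirg: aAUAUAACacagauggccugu
miR-453 of Mirg: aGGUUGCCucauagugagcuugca
miR-496a-5p of Mirg: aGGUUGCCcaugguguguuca
The 37 mature sequences carried 36 different seeds. The only seed that occurred more than once was GGUUGCC, in miR-453 and miR-496a-5p.

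Per length, Snhg14, Peg13, Kcnq1ot1 and Airn were the readily measured members, while H19, Mirg, Rian and Meg3 were at or near the bottom of the range. The row with the highest RPKM averaged 11.5 ± 2.1698 RPKM in fasted and 13.96 ± 1.27 RPKM in ad libitum livers for Snhg14 (SD, n = 4 each, as for the other genes). This Snhg14 row, NONMMUT126923.1, lies in the span of the gene but shares no exon bases with it. The Peg13 row averaged 2.44 ± 0.324 RPKM in fasted and 2.59 ± 0.0638 RPKM in ad libitum livers. The top Kcnq1ot1 row averaged 2.34 ± 0.416 RPKM in fasted and 2.30 ± 0.169 RPKM in ad libitum livers. The ranges of Peg13 and Kcnq1ot1 overlapped, at 2.07 to 2.86 and 1.86 to 2.74 RPKM, and the Peg13 row was the higher in 7 of 8 libraries, all but fasted replicate 2. The top Airn row averaged 1.29 ± 0.421 RPKM in fasted and 1.047 ± 0.194 RPKM in ad libitum livers, and its range of 0.793 to 1.87 RPKM only just reached that of Kcnq1ot1.

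The remaining genes were lower. The top Meg3 row ranged from 0.0628 to 0.471 RPKM over the 8 libraries and the top Rian row from 0.0592 to 0.178 RPKM, so their ranges overlapped. The top Mirg row was listed at 0 in 3 libraries and had 0.300 RPKM in ad libitum replicate 3, with at most 0.0420 RPKM in the other 7. The top H19 row was listed at 0 in 5 libraries and had at most 0.0695 RPKM. By a limit of 10 reads summed over the rows of a gene in every library, 0 of the 8 genes were near zero, since even H19 exceeded it in 4 libraries. By a limit of 0.1 RPKM for the top row in every library, H19 was near zero. Mirg exceeded that limit in ad libitum replicate 3 alone.

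**Figure D1:**
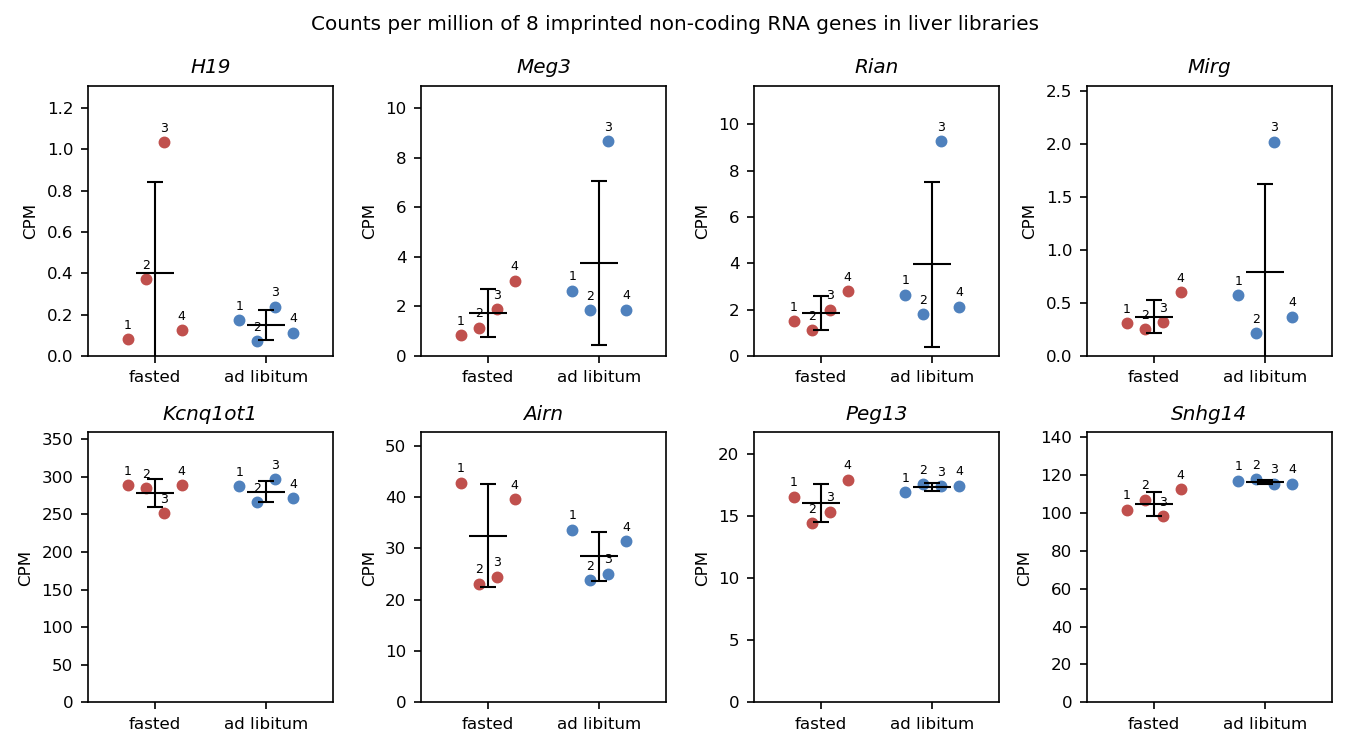
CPM of the 8 genes in each library, with fasted livers (red) left of ad libitum livers (blue), the replicate number above each point, and the mean ± SD of 4 libraries as a bar. Lower ends of bars below 0 are not drawn. Kcnq1ot1 stays between 251 and 297 CPM in all 8 libraries, while ad libitum replicate 3 lies far above the rest in Meg3, Rian and Mirg.

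None of the 8 genes passed the test between fasted and ad libitum livers, and none had an unadjusted p under 0.05. Across all genes 14507 were tested and 23.3% passed, 13.1% of all tested genes higher and 10.2% lower in fasted livers. DESeq2 and limma-voom also called 0 of the 8. Fasted replicate 4 alone against the ad libitum livers gave 0 of the 8 too, in a contrast that called 5.24% of all genes. The median log2 change of the 8 genes was -0.13, against 0.02 over all tested genes. The precision differed widely between the genes. Approximate 95% intervals of the log2 change spanned -0.21 to 0.19 for Kcnq1ot1 and -0.36 to 3.21 for H19, which does not exclude a several-fold difference for the rarest transcripts. In simulated data with known changes over 14232 genes of all levels, the test found 56% of 2-fold and 14% of 1.5-fold increases. Only 200 genes were changed there, a smaller share than the 23.3% that passed here. The adjusted threshold was therefore stricter in the simulation, and these shares do not carry over directly.

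**Figure D2:**
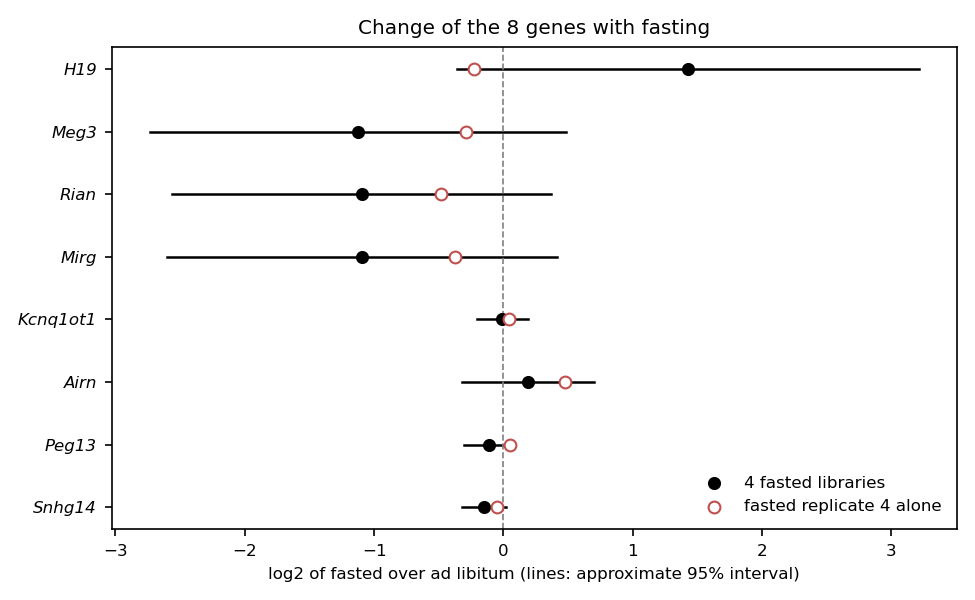
Log2 change of each gene in fasted over ad libitum livers. Black points and lines give the estimate from 4 against 4 libraries with its approximate 95% interval, and open red points give fasted replicate 4 alone against the 4 ad libitum libraries; all 8 intervals include 0.

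Kcnq1ot1 is transcribed from an intron of the potassium channel gene Kcnq1, on the opposite strand, at chr7:143203458-143296549. It had the most reads of the 8 genes. The 4 fasted livers had 289, 284, 251 and 289 CPM, and the 4 ad libitum livers had 287, 266, 297 and 271 CPM. The groups overlapped almost fully, and the log2 change was -0.01 (SE 0.09, adjusted p = 0.95). Fasted replicate 4 alone gave 0.04. The approximate 95% interval of the ratio ran from 0.866 to 1.14.

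A single unspliced row of 83437 bases, NONMMUT064303.2, carried nearly all of these reads. It starts 0.002 kb from the annotated gene start and had 245 to 279 CPM in fasted and 262 to 286 CPM in ad libitum livers. The row NONMMUT064312.2, which reaches across the start site, had a log2 change of -0.002 (SE 0.12, adjusted p = 0.99), and the 4-exon row NONMMUT127929.1 had -0.08 (SE 0.20, adjusted p = 0.84). Kcnq1 rows that are not Kcnq1ot1 rows reached at most 0.103 RPKM, against 2.32 RPKM of the long row. Those Kcnq1 rows are non-coding catalogue entries and do not measure the full Kcnq1 mRNA. Intron reads of Kcnq1 itself, and reads of Kcnq1 exon bases under the long row, cannot be told apart from Kcnq1ot1 in these counts. Among 6717 other named genes, those whose log2 CPM followed Kcnq1ot1 most closely over the 8 libraries were Pfdn1 (Pearson's r = 0.97), Eml4 (r = 0.92) and Mta3 (r = 0.91). These are descriptions over 8 libraries that share a scaling.

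Airn starts inside an intron of Igf2r, the gene of the receptor that clears insulin-like growth factor 2, and runs on the opposite strand past its promoter, at chr17:12741311-12860136. The 4 fasted livers had 42.8, 23.1, 24.5 and 39.6 CPM, and the 4 ad libitum livers had 33.7, 23.8, 25.1 and 31.4 CPM. Fasted replicates 1 and 4 were highest and fasted replicate 2 was lowest, so the spread within the fasted group was wider than the distance between the groups. The order of the replicate numbers was the same in both groups. The log2 change was 0.19 (SE 0.22, adjusted p = 0.58), with 0.47 in fasted replicate 4 alone. With a term for replicate number added to the test, the log2 change of Airn was 0.15 (SE 0.10, adjusted p = 0.32). Without fasted replicate 1 the main log2 change became 0.02, and with only the rows that share exon bases with Airn it was 0.05.

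Most Airn reads lay in unspliced rows. Of the CPM summed over its rows, the 9 spliced rows held 7.60% in fasted and 8.17% in ad libitum livers, and 16 single-exon rows held the rest. RPKM of the single-exon rows fell with distance from the start, with 1.17 RPKM in the row at 7.0 kb and 0.260 RPKM in the row at 84.3 kb. Spearman's rho between distance and RPKM was -0.90 over the 16 rows, and between -0.89 and -0.59 in each of the 8 libraries. The rows share libraries, so this is a description. The 4 single-exon rows inside Igf2r summed to 14.6, 8.89, 9.36 and 12.8 CPM in fasted and to 11.6, 7.77, 9.03 and 11.02 CPM in ad libitum livers. The 12 rows beyond Igf2r summed to 24.4, 12.7, 13.4 and 23.2 CPM in fasted and to 19.5, 14.4, 13.8 and 17.9 CPM in ad libitum livers. Both stretches were highest in fasted replicates 1 and 4, like the whole gene. Igf2r itself had no same-strand row, and reads of its introns and exons cannot be told apart from Airn where the genes overlap. The most abundant Airn row, NONMMUT028241.2 at 7.0 kb, lies over exon bases of Igf2r.

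Among the 3 most abundant Airn rows, NONMMUT028241.2 had a log2 change of 0.25 (SE 0.17, adjusted p = 0.35), NONMMUT028242.2 had 0.08 (SE 0.23, adjusted p = 0.85) and NONMMUT028245.2 had 0.29 (SE 0.42, adjusted p = 0.69). Of the 21 tested Airn rows, 0 passed and 0 had an unadjusted p under 0.05. Their log2 changes ranged from -0.25 to 0.52, with 16 above 0.

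**Figure D3:**
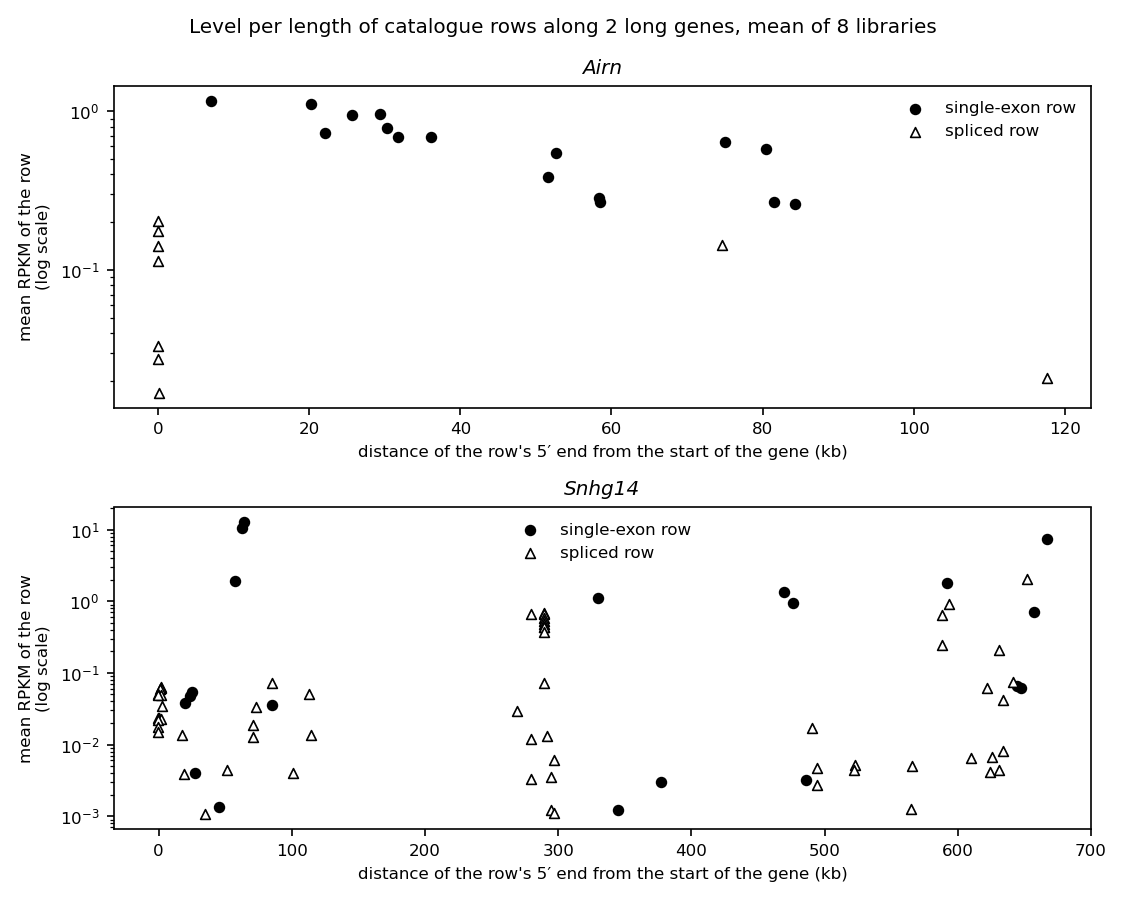
Mean RPKM over the 8 libraries (log axis) of each catalogue row of Airn and Snhg14. The other axis is the distance of the row's 5′ end from the GENCODE start of the gene in kb. Filled circles are single-exon rows and open triangles spliced rows. Airn's unspliced rows run from 1.17 RPKM near the start to 0.260 RPKM at 84.3 kb, while Snhg14 holds high rows near 62 kb and at its far end and rows at or under 0.0635 RPKM before them.

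Peg13 is a single-exon gene at chr15:72805600-72810324 that lies in an intron of Trappc9 on the same strand. The 4 fasted livers had 16.6, 14.4, 15.4 and 17.9 CPM, and the 4 ad libitum livers had 16.9, 17.6, 17.4 and 17.5 CPM. The ad libitum livers spread over less than 1 CPM, and 3 of the 4 fasted livers lay below all of them. The log2 change was -0.11 (SE 0.09, adjusted p = 0.40), and fasted replicate 4 alone gave 0.05. Because Trappc9 is transcribed in the same direction, its intron reads fall in the Peg13 row too. The 3 Trappc9 rows outside Peg13 had at most 0.418 RPKM, against 2.51 RPKM in the Peg13 row, NONMMUT023869.2. These 3 rows are non-coding catalogue entries and do not measure the full Trappc9 mRNA.

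Snhg14 was the member in which single rows passed the test, all of them lower in fasted livers. It spans 667836 bases at chr7:59307924-59975759 and holds 208 annotated snoRNA genes. The 4 fasted livers had 101, 107, 98.1 and 112 CPM, and the 4 ad libitum livers had 117, 118, 115 and 115 CPM. All 4 fasted values lay below all 4 ad libitum values; the groups did not overlap in 23.3% of all tested genes. The log2 change of the summed gene was -0.15 (SE 0.08, adjusted p = 0.19), and fasted replicate 4 alone gave -0.05.

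The reads of Snhg14 came from a few short stretches, which were picked out after the values were seen. A run of 3 single-exon rows at chr7:59910824-59918546, 7723 bases with 0 other GENCODE genes on either strand, held 42.9% of the gene's CPM in fasted and 46.3% in ad libitum livers. The 3 rows of the run lie in the Snhg14 span but share no exon bases with Snhg14. The run summed to 43.1, 45.4, 42.2 and 48.3 CPM in fasted livers, and to 56.3, 53.4, 54.7 and 52.0 CPM in ad libitum livers. The groups did not overlap, as in 19.3% of all tested rows, and the mean of fasted livers was 0.827 times that of ad libitum livers. Its row of highest RPKM, NONMMUT126923.1, had 16.8, 17.5, 14.9 and 16.96 CPM in fasted and 22.5, 19.9, 21.1 and 19.7 CPM in ad libitum livers. This row fell by 0.33 on the log2 scale (SE 0.10, adjusted p = 0.032). The neighbouring row NONMMUT126924.1 had 14.4, 14.9, 14.8 and 17.4 CPM in fasted and 19.5, 18.6, 18.8 and 17.9 CPM in ad libitum livers, a log2 change of -0.28 (SE 0.10, adjusted p = 0.060). When each gene was represented by its row of highest RPKM, Snhg14 passed with a log2 change of -0.32 (adjusted p = 0.032).

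At the far end, 2 Snhg14 rows lie over exons of Ube3a, the ubiquitin ligase gene on the opposite strand. They held 35.1% of the gene's CPM in fasted and 31.0% in ad libitum livers. They summed to 34.3, 38.9, 35.5 and 37.7 CPM in fasted and to 33.4, 40.4, 33.0 and 38.2 CPM in ad libitum livers, with no separation of the groups. Rows of Ube3a itself summed to 37.2 to 38.9 CPM in fasted and 33.5 to 42.0 CPM in ad libitum livers, which is close to the level assigned to Snhg14. Since the counts did not tell the strands apart, antisense Snhg14 cannot be told apart from Ube3a here. The more abundant of these rows, NONMMUT061426.2, had a log2 change of -0.03 (SE 0.10, adjusted p = 0.89). With only the rows that share exon bases with Snhg14, the gene's log2 change was -0.01 (adjusted p = 0.96). That setting keeps these Ube3a rows but leaves out the whole abundant run, so the decrease of the run does not enter it.

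The other 77 Snhg14 rows summed to 22.4, 22.1, 20.8 and 26.3 CPM in fasted and to 26.8, 25.4, 27.0 and 26.5 CPM in ad libitum livers. Among them, 8 spliced rows that share a 5′ end 289 kb from the GENCODE start of the gene had 0.370 to 0.687 RPKM. All 8 were tested and 0 passed, with log2 changes of 0.002 to 0.48. The 21 rows upstream of the abundant run had at most 0.0635 RPKM. They summed to 1.97 to 2.47 CPM in fasted livers and to 3.59 CPM in ad libitum replicate 3, against 2.27 to 2.41 CPM in the other ad libitum livers.

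Of the 178 member rows, 77 were tested and 5 passed, all Snhg14 rows that were lower in fasted livers. Of these 5 rows, only NONMMUT061618.2 shares exon bases with Snhg14. Across all 40840 tested rows 17.2% passed, and 7.67% of all tested rows passed with a lower level in fasted livers. The median log2 change of the 77 tested member rows was -0.19, against 0.01 over all tested rows. Without the low-count filter, 16 of 178 member rows passed, 1 higher and 15 lower. Over all 83056 rows, 7480 were then higher and 3795 lower. Besides NONMMUT126923.1, the single-exon row NONMMUT126906.1 at chr7:59505238-59506284 had 1.66, 1.38, 1.66 and 1.62 CPM in fasted and 2.171, 2.05, 2.84 and 2.27 CPM in ad libitum livers. It fell by 0.56 on the log2 scale (SE 0.15, adjusted p = 0.022). The other 3 passing rows were rare. They met the low-count filter through the ad libitum libraries, since too few fasted libraries reached its level. A rare row can enter the test through the group where it is high, so the direction of these 3 carries a filter effect. The 11-exon row NONMMUT061618.2 had 2, 6, 6 and 2 reads in fasted and 14, 18, 12 and 16 reads in ad libitum livers, a log2 change of -2.62 (SE 0.54, adjusted p = 0.0048). The 3-exon row NONMMUT061437.2 had 0.0497 to 0.125 CPM in fasted and 0.197 to 0.514 CPM in ad libitum livers, and fell by 1.63 on the log2 scale (adjusted p = 0.029). The single-exon row NONMMUT061434.2 had 0.0998 to 0.191 CPM in fasted and 0.252 to 0.800 CPM in ad libitum livers, and fell by 1.44 on the log2 scale (adjusted p = 0.041).

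In fasted replicate 4 alone the 5 rows had log2 changes of -3.23 (NONMMUT061618.2), -0.52 (NONMMUT126906.1), -1.23 (NONMMUT061437.2), -0.29 (NONMMUT126923.1) and -1.99 (NONMMUT061434.2). All 5 were negative and 0 passed, in a contrast where 3.29% of all rows passed. The number of passing member rows was 20 without fasted replicate 4 and 1 without fasted replicate 1 or 2. It was 3 without fasted replicate 3, and 2, 3 and 2 without ad libitum replicates 1, 3 and 4. NONMMUT061618.2, which met the low-count filter through the ad libitum libraries, passed with any single library left out (adjusted p = 0.0042 to 0.028). NONMMUT126923.1 and NONMMUT061434.2 did not pass without any of fasted replicates 1 to 3 or ad libitum replicates 1, 3 and 4 (adjusted p = 0.051 to 0.11 for NONMMUT126923.1 and 0.053 to 0.23 for NONMMUT061434.2). NONMMUT126906.1 did not pass without fasted replicate 1 or 2 or ad libitum replicate 3 or 4 (0.051 to 0.070), nor NONMMUT061437.2 without fasted replicate 1, 2 or 3 or ad libitum replicate 1 or 2 (0.055 to 0.15). The snoRNA units of Snhg14 are repeated many times, and how reads that match several copies were counted is not given in the sources used here, so single rows in this region are uncertain. In the opposite direction, the row NONMMUT126930.1, singled out after its values were seen, had 42, 18, 18 and 0 reads in fasted and 0 reads in all 4 ad libitum livers. It was not tested, since too few libraries reached the level that the low-count filter asks for. The genes whose log2 CPM followed Snhg14 most closely were Tmem167 (r = 0.99), Inafm2 (r = 0.97) and Ccnj (r = 0.97), out of the same 6717.

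**Figure D4:**
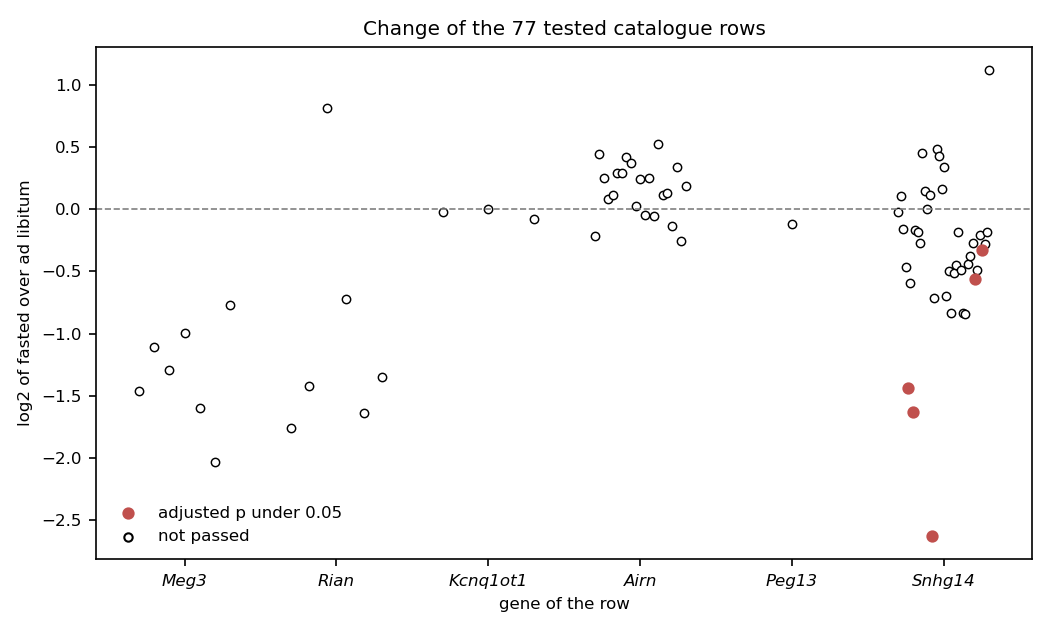
Log2 change in fasted over ad libitum livers of the 77 tested rows, by gene. Filled red points are the 5 rows with an adjusted p under 0.05, all of Snhg14 and between -2.62 and -0.33; H19 and Mirg had no tested row.

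Meg3, Rian and Mirg were scarce in adult liver and varied more between mice than between the groups, with the highest value of each in ad libitum replicate 3. Meg3, a tumour suppressor RNA at chr12:109541001-109571726, had 104, 152, 154 and 244 reads in fasted and 184, 104, 438 and 132 reads in ad libitum livers. That corresponded to 0.842, 1.13, 1.90 and 3.05 CPM in fasted and 2.64, 1.84, 8.68 and 1.87 CPM in ad libitum livers. The log2 change was -1.12 (SE 0.67, adjusted p = 0.28). Without ad libitum replicate 3 it was -0.32 (adjusted p = 0.65), and fasted replicate 4 alone gave -0.29.

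Rian, a host of box C/D snoRNAs with 13 annotated snoRNA genes inside it, lies at chr12:109603940-109661716. It had 1.51, 1.12, 2.00 and 2.80 CPM in fasted and 2.64, 1.81, 9.27 and 2.13 CPM in ad libitum livers. The log2 change was -1.10 (SE 0.62, adjusted p = 0.25), -0.27 without ad libitum replicate 3 (adjusted p = 0.56) and -0.49 in fasted replicate 4 alone. Mirg, the microRNA host at chr12:109729764-109749460, had 38, 34, 26 and 48 reads in fasted and 40, 12, 102 and 26 reads in ad libitum livers. Its log2 change was -1.09 (SE 0.66, adjusted p = 0.27), -0.10 without ad libitum replicate 3 (adjusted p = 0.89) and -0.37 in fasted replicate 4 alone.

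The 3 genes followed each other over the 8 libraries. Pearson's r of log2 CPM was 0.96 for Meg3 and Rian (exact permutation p = 0.00050, adjusted over 3 pairs 0.0015), 0.90 for Meg3 and Mirg (0.0056, adjusted 0.0056) and 0.95 for Rian and Mirg (0.0015, adjusted 0.0022), all two-sided. Spearman's rho was 0.95 for Meg3 and Rian (exact permutation p = 0.0011, adjusted 0.0033), 0.88 for Meg3 and Mirg (0.0072, adjusted 0.0072) and 0.93 for Rian and Mirg (0.0022, adjusted 0.0033). Without the 2 libraries farthest from the median of the first gene of each pair, one of them ad libitum replicate 3 each time, r was 0.98, 0.81 and 0.85 over 6 libraries. With each group centred on its own mean, which was added once the values were known, r was 0.94 for Meg3 and Rian (exact permutation p within groups = 0.0087, adjusted 0.0087), 0.89 for Meg3 and Mirg (0.0087, adjusted 0.0087) and 0.96 for Rian and Mirg (0.0017, adjusted 0.0052), over 576 arrangements. The libraries share a scaling, and ad libitum replicate 3 stood apart from the others.

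In ad libitum replicate 3, Meg3 had 4.64 times, Rian 4.64 times and Mirg 6.30 times the median of the other 7 libraries, while the other 5 genes had between 0.799 and 1.90 times. In that library 7 of 7 tested Meg3 rows and 5 of 6 tested Rian rows were highest, as were 10 of 39 tested Snhg14 rows. Many of these rows overlap, so the same reads can count in several. The share over all tested rows was not computed. The 11 plus-strand rows between Rian and Mirg, which belong to neither gene, summed to 0.495 to 1.07 CPM in fasted livers and to 3.90 CPM in ad libitum replicate 3, against 0.755 to 1.29 CPM in the other ad libitum livers. Summed levels of the cell type markers in ad libitum replicate 3 were 3828 CPM for hepatocytes (3 of 8 markers with a row), against 3242 to 3639 CPM in the other ad libitum livers. They were 0.555 against 0.213 to 0.453 CPM for Kupffer cells (2 of 6), 0.674 against 0.788 to 0.822 CPM for endothelium (1 of 6) and 35.7 against 37.8 to 56.2 CPM for stellate cells and fibroblasts (5 of 6). They were 1.07 against 0.674 to 0.879 CPM for cholangiocytes (2 of 4) and 12.3 against 7.45 to 10.8 CPM for lymphocytes (2 of 4). The part of these cells in the result was not tested.

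**Figure D5:**
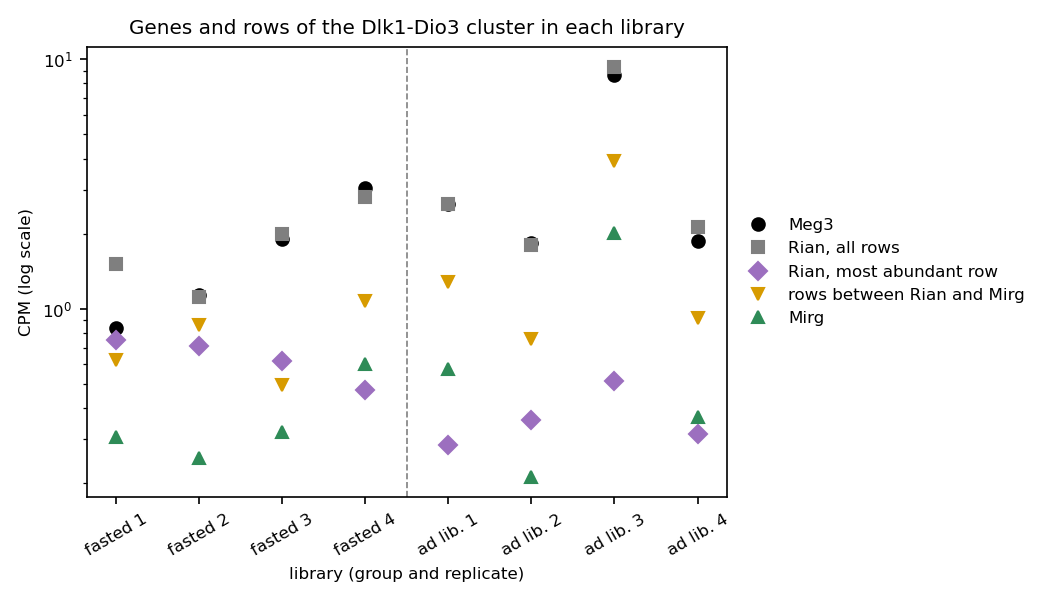
CPM (log axis) of Meg3, of all Rian rows, of the most abundant Rian row, of the rows between Rian and Mirg, and of Mirg in each library, with fasted livers left of the dashed line. Ad libitum replicate 3 is the highest library for every series except the most abundant Rian row, which is highest in fasted replicate 1 at 0.749 CPM.

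Among the 6 tested Rian rows, a single row did not share this pattern. NONMMUT015763.2, a single-exon row of 3476 bases at chr12:109632798-109636273, contains the snoRNA genes Gm23474 and AF357425. It had 0.749, 0.712, 0.619 and 0.474 CPM in fasted and 0.286, 0.360, 0.513 and 0.316 CPM in ad libitum livers. Fasted replicates 1 to 3 lay above all ad libitum livers, and fasted replicate 4 lay below ad libitum replicate 3. The log2 change was 0.81 (SE 0.28, adjusted p = 0.061), with an adjusted p of 0.042 in DESeq2, and 0.38 in fasted replicate 4 alone. When each gene was represented by its row of highest RPKM, this row stood for Rian, whose log2 change was then 0.83 (adjusted p = 0.0497). The other 26 Rian rows summed to 0.733, 0.401, 1.39 and 2.32 CPM in fasted and to 2.34, 1.47, 8.71 and 1.84 CPM in ad libitum livers.

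The spliced Rian rows NONMMUT015778.2 and NONMMUT015751.2, the next in level among the tested Rian rows, had log2 changes of -1.64 (SE 0.67, adjusted p = 0.11) and -1.75 (SE 0.72, adjusted p = 0.12). Of the Meg3 rows, the 3-exon row NONMMUT015697.2 had -0.99 (SE 0.60, adjusted p = 0.29), the 10-exon row NONMMUT015696.2 had -1.30 (SE 0.57, adjusted p = 0.14) and the 9-exon row NONMMUT015698.2 had -1.60 (SE 0.69, adjusted p = 0.13). In fasted replicate 4 the short row NONMMUT015697.2 was high, with 0.474 CPM against 0.127 to 0.149 CPM in the other fasted livers. The longer rows NONMMUT015696.2 and NONMMUT015698.2 had 0.200 and 0.0748 CPM there, within the range of the other fasted livers. No Mirg row was tested.

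H19, at chr7:142575529-142578143, had the lowest top row by mean RPKM, at 0.0222 RPKM, against 0.0514 RPKM for Mirg. In fasted replicate 2 and ad libitum replicates 1 and 4, the H19 top row was above that of Mirg. It was below in fasted replicate 4 and ad libitum replicate 3, and both rows were at 0 in the other libraries. The 8 H19 rows held 10, 50, 84 and 10 reads in fasted and 12, 4, 12 and 8 reads in ad libitum livers. In CPM these were 0.0810, 0.372, 1.04 and 0.125 in fasted and 0.172, 0.0709, 0.238 and 0.113 in ad libitum livers. Fasted replicates 2 and 3 were above all ad libitum livers, and fasted replicates 1 and 4 lay within their range. The log2 change was 1.42 (SE 0.80, adjusted p = 0.23), 0.41 without fasted replicate 3 (adjusted p = 0.69) and -0.23 in fasted replicate 4 alone. Reads in overlapping rows can be counted more than once, so the number of H19 fragments may be lower still.

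Other imprinted genes were taken from a list of 65, of which 35 had a same-strand row and 26 were tested. Of these 3 were higher and 3 lower in fasted livers, against the 13.1% and 10.2% of all genes, and 20 did not pass. The median log2 change of the 26 was 0.15. Trappc9, which was among the 26 and did not pass, takes in the Peg13 row as its row of highest RPKM, so Peg13 reads are counted again there. Because the rows are non-coding catalogue entries, a value for a protein-coding gene here is not its full mRNA. Gnas, which encodes the stimulatory G protein alpha subunit, had 15.1 ± 0.997 CPM in fasted and 11.1 ± 0.116 CPM in ad libitum livers (SD, n = 4 each), a log2 change of 0.44 (SE 0.08, adjusted p = 0.0038). Blcap had 6.18 ± 0.525 CPM in fasted and 4.60 ± 0.470 CPM in ad libitum livers (log2 change 0.43, adjusted p = 0.020). H13, the signal peptide peptidase gene, had 35.1 ± 2.97 CPM in fasted and 49.4 ± 2.11 CPM in ad libitum livers (log2 change -0.49, adjusted p = 0.0021).

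On chromosome 7, the zinc finger gene Zfp264 had 2.66 ± 0.452 CPM in fasted and 5.64 ± 0.278 CPM in ad libitum livers, a log2 change of -1.09 (SE 0.14, adjusted p = 0.00034) and of -0.83 in fasted replicate 4 alone (adjusted p = 0.032). In the Snhg14 region, Peg12 had 0.988, 1.56, 0.789 and 0.250 CPM in fasted and 0.201, 0.248, 0.0396 and 0.170 CPM in ad libitum livers (log2 change 2.43, adjusted p = 0.016). Fasted replicate 4 of Peg12 lay beside the highest ad libitum liver, and its log2 change alone was 0.57 (adjusted p = 0.71). Of the 5 genes named here, Zfp264 was the only one that passed with fasted replicate 4 alone. Peg12 did not pass without ad libitum replicate 1 or 4 (adjusted p = 0.051 and 0.055), and Blcap did not pass without fasted replicate 1 or ad libitum replicate 1, 2 or 4 (adjusted p = 0.052 to 0.071). Peg12 did not pass with limma-voom either (adjusted p = 0.096). With library totals in place of TMM scaling, Gnas and Blcap did not pass (adjusted p = 0.053 and 0.098). In fasted replicate 4 alone, Gnas had a log2 change of 0.33 (adjusted p = 0.17).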

How the data were processed

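Stranded total-RNA libraries of 8 livers were sequenced, and per the submitters' processing notes bcl2fastq 2.17 and BWA were used with build mm10. The deposited table gives raw read counts per NONCODE transcript and, per the file headers, RPKM beside each count. How reads were counted, and whether by strand or at repeats, is not given in the sources used here. Empty cells have an RPKM of 0 and were read as 0. The mitochondrial 16S rRNA row, empty in ad libitum replicate 3 only, was left out of totals and tests.

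Rows were joined to GENCODE release 21 spans on the same strand (bedtools 2.31.1) and counts summed per gene, so reads in overlapping rows can count more than once. All genes and, separately, all rows were fitted with edgeR 4.0.16 in R 4.3.3 (TMM, filterByExpr, robust quasi-likelihood F test, two-sided, Benjamini-Hochberg over all features). Intervals are the estimate ± a t quantile times its SE. The summed counts of stretches use the scaling of the row fit. The code was tested on simulated data with 200 changed features. The labels number the replicates within each group, and each replicate was taken as a separate mouse throughout.

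The 8 genes, the lists and the tests were chosen with earlier results of these data known. All 8 genes are named. Of rows, the 3 most abundant tested of each gene and those that passed are named, of imprinted neighbours those that passed (1 of them is not reported here), and for the 2 genes of highest CPM the 3 genes most alike. Alternatives were RLE scaling, library totals, DESeq2 1.42.0, limma-voom (limma 3.58.1), 2 other filters, a replicate block, fasted replicate 4 alone (with a term for replicates 1 to 3; its spread is taken from the other libraries), each library left out, exon-sharing rows, the row of highest RPKM and, added after the data were seen, genes without small RNA classes.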

Additional observations from a re-analysis of the deposited data

Results flagged for a closer look

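A library was singled out where it lay far from the other 3 of its group relative to the group's range, by Dixon's test at 95%. Chance gives about 1 such library in 20 groups, and 13 were found among 110 groups checked, many of which share libraries and rows. In ad libitum replicate 3 they were Meg3 (8.678 CPM, against 1.84 to 2.64 CPM in the other ad libitum livers), Rian (9.273 CPM, against 1.81 to 2.64 CPM), the Rian rows other than the most abundant one (8.714 CPM, against 1.47 to 2.34 CPM) and the plus-strand rows between Rian and Mirg (3.903 CPM, against 0.755 to 1.29 CPM). They were also the Meg3 rows NONMMUT015696.2 (1.301 CPM, against 0.230 to 0.288 CPM) and NONMMUT015698.2 (0.8674 CPM, against 0.114 to 0.180 CPM), and the Snhg14 rows upstream of the abundant run (3.588 CPM, against 2.27 to 2.41 CPM).

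In fasted replicate 3, Kcnq1ot1 was low at 251.4 CPM, against 284 to 289 CPM in the other fasted livers, as was its row NONMMUT064303.2 at 245.2 CPM, against 276 to 279 CPM. In fasted replicate 4, the Meg3 row NONMMUT015697.2 was high at 0.4738 CPM, against 0.127 to 0.149 CPM, and the summed level of the stellate cell and fibroblast markers, whose members went both ways, was low at 46.96 CPM, against 125 to 141 CPM. The Snhg14 row NONMMUT126906.1 was low in fasted replicate 2 at 1.379 CPM, against 1.62 to 1.66 CPM. The Snhg14 row NONMMUT061434.2 was high in ad libitum replicate 1 at 0.800 CPM, against 0.252 to 0.276 CPM.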

How the results depend on the processing

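Across the alternatives run, 0 of the 8 genes passed, except that with the row of highest RPKM 2 did, Rian (reversed to 0.83) and Snhg14 (-0.32); in that setting and with the 1 CPM filter H19 and Mirg could not be tested. The count of passing genes (3382) was 2139 with library totals, 760 with fasted replicate 4 alone and 2000 to 4677 with each library left out. The count of passing rows (7033) was 4661, 1344 and 4158 to 11295 in the same settings and 11275 without a filter. The count of member rows (5) was 9 with DESeq2, 16 without a filter, 2 each with library totals, the 1 CPM filter and the replicate block, 0 with fasted replicate 4 alone and 1 to 20 with each library left out; the cause was not tested. Imprinted neighbours (6) fell to 1 with fasted replicate 4 alone.

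With fasted replicate 4 alone the log2 change reversed for H19 (-0.23), Kcnq1ot1 (0.044), Peg13 (0.049) and the rows NONMMUT064303.2 (0.031), NONMMUT064312.2 (0.21), NONMMUT127929.1 (0.22), NONMMUT015697.2 (0.15) and NONMMUT023869.2 (0.041). With the 1 CPM filter it reversed for Kcnq1ot1 (0.0055), NONMMUT064303.2 (0.023), NONMMUT064312.2 (0.043) and NONMMUT061426.2 (0.021). NONMMUT064312.2 also reversed with library totals (0.015) and without a filter (0.0054). With each library left out, ranges that crossed 0 were -0.050 to 0.030 for Kcnq1ot1, -0.093 to 0.23 for NONMMUT028242.2, -0.052 to 0.030 for NONMMUT064303.2, -0.089 to 0.067 for NONMMUT064312.2, -0.20 to 0.035 for NONMMUT127929.1 and -0.083 to 0.031 for NONMMUT061426.2. Of these only NONMMUT015697.2 passed in any setting, without fasted replicate 4 (-1.66, adjusted p = 0.031). Over all named rows and neighbours, 326 values kept direction and call, 47 no longer passed, 11 newly passed and 20 reversed. By top-row RPKM 1 gene, H19, was near zero, against 0 by reads.

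Over all genes, deviations of same-numbered mice correlated at 0.04, 0.02, 0.03 and -0.01. These values cannot exclude a shared handling of same-numbered mice that touched few genes. Airn had the same order of replicate numbers in both groups. With the replicate block, NONMMUT126923.1, NONMMUT061437.2 and NONMMUT061434.2 no longer passed (adjusted p = 0.059, 0.053 and 0.052). The low read numbers of H19, Mirg and rare rows limit their precision. In simulated rows of all levels, 40.8% of 2-fold and 0% of 1.5-fold increases were found. There 200 rows were changed, a smaller share than the 17.2% that passed in these data, so the adjusted threshold was stricter.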
